A study of Ovis aries and Mus musculus with 10 samples.

Results

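The striated muscle miRNAs miR-1, miR-133a, miR-133b and miR-206 were followed in mammary gland of sheep and mouse. They were chosen by name, as the 4 of 567 mouse miRNAs on the array whose probe name was mmu-miR-1, mmu-miR-133a, mmu-miR-133b or mmu-miR-206, a rule that uses no measured value. Total RNA of snap-frozen tissue, 100 ng per sample and with an RNA integrity number of at least 6, was labelled with Cy3 and hybridised to 10 Agilent miRNA arrays. The 5 sheep arrays held ewes at day 15 of the cycle, at days 14, 64 and 125 of gestation, and at day 60 of lactation. The 5 mouse arrays held CD1 mice, an outbred stock, as virgins, at days 10 and 17 of gestation, and at days 2 and 10 of lactation. No animal was treated, each stage and day had 1 array, and the labels do not say whether an array held 1 animal or a pool, or how muscle next to the gland was trimmed away. The breed of the sheep and the age of the animals are not given in the sources used here.

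miR-1, miR-133a and miR-133b are abundant in skeletal muscle and miR-1 and miR-133a also in heart, whereas miR-206 is largely a skeletal muscle miRNA. Their transcription follows the muscle factors that also switch on myosin and actin genes, and they act on myoblast division and differentiation. miR-1 and miR-206 carry the same seed, the stretch at the 5′ end that pairs with target mRNAs. miR-133a and miR-133b carry another shared seed and differ only at the 3′ end. Each miR-1 type gene sits beside a miR-133 gene, miR-1 with miR-133a and miR-206 with miR-133b, and both are read from 1 transcript. Sheets of skeletal muscle lie against the gland of the mouse.

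Each of the 4 miRNAs was read by 2 probes of 10 spots each, so by 20 spots per array. The probe targets are given by the scanner files on the mouse build mm9, and within each pair of probes the target stretches differ by 1 base. For miR-1 they were chr18:10785483-10785502 and chr18:10785483-10785503, and for miR-133a chr18:10782911-10782927 and chr18:10782911-10782928. For miR-133b they were chr1:20672919-20672936 and chr1:20672918-20672936, and for miR-206 chr1:20669143-20669157 and chr1:20669142-20669157. The miR-1 and miR-133a targets therefore lay side by side on chromosome 18, and the miR-133b and miR-206 targets side by side on chromosome 1. The mouse genome holds a further copy of the pair of miR-1 and miR-133a genes, whose product the same probes would read. Signal that passes between the probes of miR-133a and miR-133b, or between those of miR-1 and miR-206, was not tested, nor was the match of the sheep miRNAs to these mouse probes. The mature sequences are not shown here.

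Of the 40 values (4 miRNAs on 10 arrays), 21 carried the scanner software's detection flag. All 4 miRNAs were detected at sheep gestation day 14, in virgin mice and at mouse gestation day 17. In sheep, 3 were detected in cycle, 3 at gestation day 64, 0 at gestation day 125 and 2 in lactation. In mouse, 1 was detected at gestation day 10 and 0 at lactation days 2 and 10. The bright values lay on only 2 arrays, mouse virgin and mouse gestation day 17, and every one of the 4 miRNAs was highest in virgin mice and next highest at gestation day 17. The 4 miRNAs together made up 0.0117 to 0.107% of the summed signal on the sheep arrays. On the mouse arrays they made up 0.960% at gestation day 17, 2.37% in virgin animals and 0.0180 to 0.0390% on the other 3.

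Signals below are given as a percentage of the array's 75th percentile over the 94 miRNAs detected on all 10 arrays, with the standard error between spots, which covers the spots of an array and not the spread between animals. That percentile was between 788 and 1998 arbitrary units on the sheep arrays and between 246 and 937 on the mouse arrays, and 125 to 208 miRNAs were detected per array. By their scanner files, 2 of the mouse arrays (virgin animals and gestation day 10) shared slide 2, and slide 1 held the remaining 8. The bright virgin and gestation day 17 arrays thus came from different slides, and the dim gestation day 10 array shared slide 2 with the virgin array. In whole tissue, fewer cells of a type and less of a miRNA per cell cannot be told apart.

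**Figure D1:**
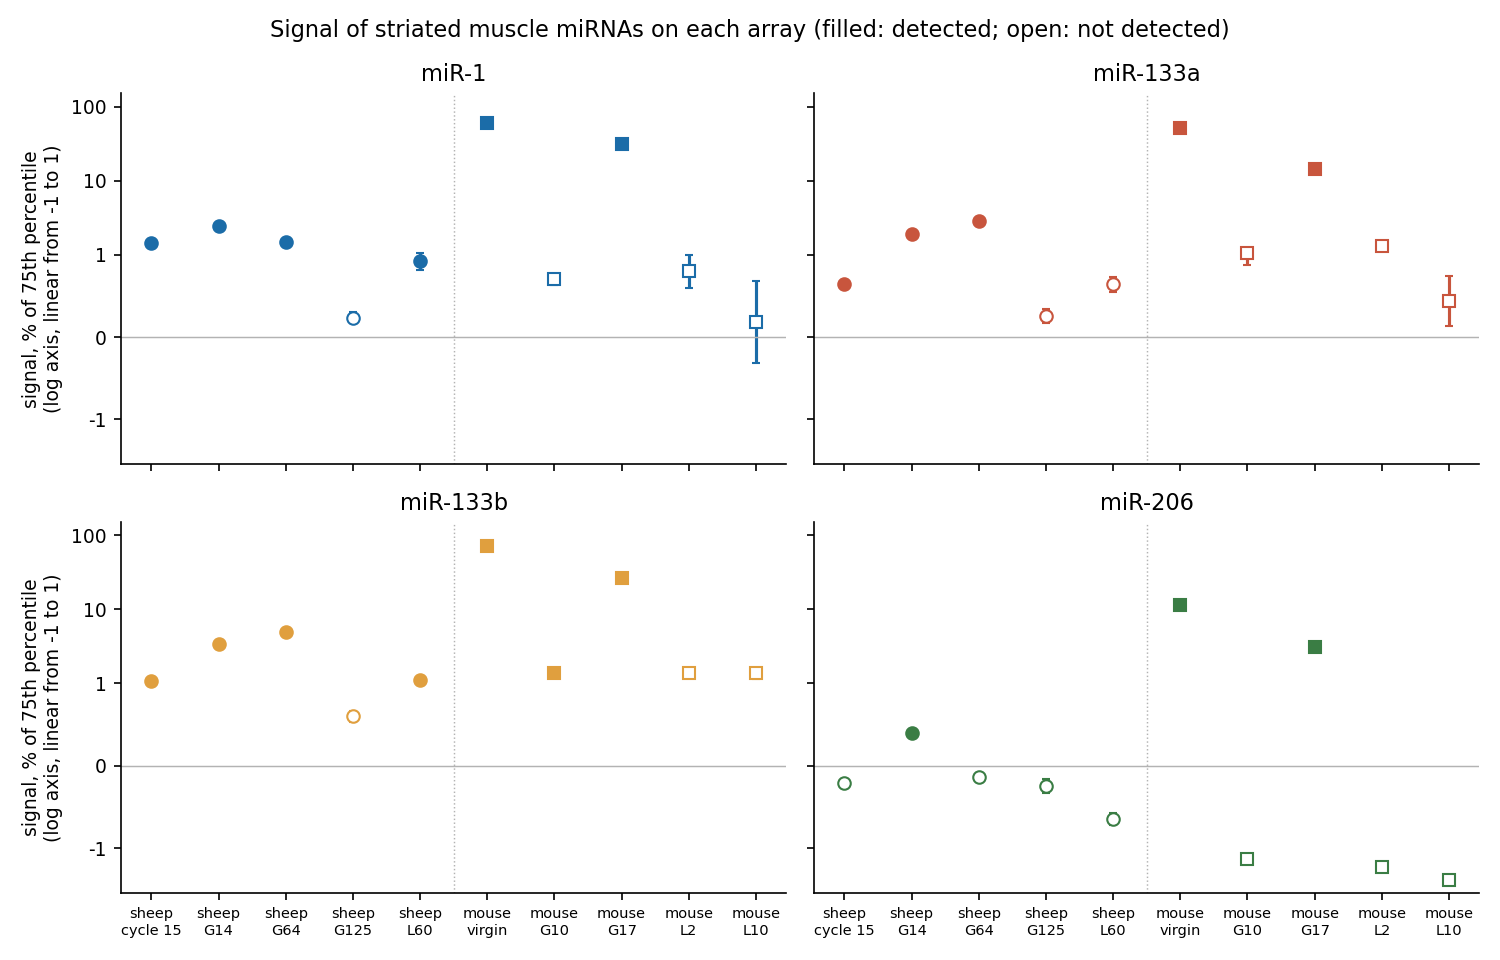
Signal of each miRNA on the 10 arrays, as a percentage of the array's 75th percentile of shared miRNAs (log axis that turns linear between -1 and 1), with the standard error between spots; circles are sheep, squares are mouse, filled symbols were flagged as detected. At mouse gestation day 17 the 4 miRNAs lie between 3.12 and 31.6%, and in virgin mice, where each is highest, between 11.6 and 70.7%.

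miR-1, which restrains myoblast division and favours differentiation, had a signal on the sheep arrays of 1.42 ± 0.047% in cycle, 2.47 ± 0.045%, 1.50 ± 0.057% and 0.238 ± 0.066% at gestation days 14, 64 and 125, with 0.929 ± 0.12% in lactation. In mouse it was 60.3 ± 0.33% in virgin mice, 0.701 ± 0.069% at gestation day 10, 31.6 ± 0.35% at gestation day 17, 0.800 ± 0.20% at lactation day 2 and 0.184 ± 0.49% at lactation day 10. In sheep, 10 of 20 spots were well above background at cycle day 15 and on each of gestation days 14 and 64, 5 of 20 in lactation and 0 of 20 at gestation day 125. All of these sheep spots belonged to the longer probe. In mouse every spot used was well above it at gestation day 17 (20 of 20) and in virgin mice (18 of 18). In the order from high to low, virgin mice, mouse gestation day 17 and sheep gestation day 14 each differed from the next array by more than 2 standard errors between spots, while sheep gestation day 64 and sheep cycle did not differ beyond that.

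miR-133a, which acts on myoblast proliferation, had a signal on the sheep arrays of 0.648 ± 0.041% in cycle, 1.90 ± 0.041%, 2.86 ± 0.043% and 0.256 ± 0.081% at gestation days 14, 64 and 125, with 0.642 ± 0.090% in lactation. In mouse its signal was 51.0 ± 0.33% in virgin mice, 1.04 ± 0.17% at gestation day 10, 14.3 ± 0.20% at gestation day 17, 1.31 ± 0.20% at lactation day 2 and 0.442 ± 0.30% at lactation day 10. It was detected on 5 arrays, the same as for miR-1 apart from sheep lactation. Below sheep gestation day 14 in the order, neighbours mostly did not differ beyond their error.

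miR-133b, the close relative of miR-133a that is encoded next to miR-206, was the most often detected, on 7 arrays. Its signal on the sheep arrays was 1.08 ± 0.047% in cycle, 3.41 ± 0.058%, 4.89 ± 0.063% and 0.600 ± 0.067% at gestation days 14, 64 and 125, with 1.13 ± 0.092% in lactation. On the mouse arrays it was 70.7 ± 0.72% in virgin mice, 1.39 ± 0.15% at gestation day 10, 26.2 ± 0.27% at gestation day 17, 1.40 ± 0.16% at lactation day 2 and 1.38 ± 0.24% at lactation day 10. Sheep gestation days 14 and 64 were the highest of the sheep arrays for miR-133b and miR-133a alike, and gestation day 125 the lowest for both. The detection flag on the dim arrays is a weak one: at sheep lactation day 60 miR-133b was flagged as detected with 0 of 20 spots well above background, and at mouse gestation day 10 with 1 of 20.

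miR-206, the member most tied to skeletal muscle, was detected on 3 arrays. Its signal on the sheep arrays was -0.210 ± 0.039% in cycle, 0.398 ± 0.034%, -0.133 ± 0.043% and -0.241 ± 0.085% at gestation days 14, 64 and 125, with -0.647 ± 0.077% in lactation. The mouse arrays gave 11.6 ± 0.26% in virgin mice, -1.38 ± 0.12% at gestation day 10, 3.12 ± 0.089% at gestation day 17, -1.80 ± 0.16% at lactation day 2 and -2.69 ± 0.28% at lactation day 10. Values below 0 arise where the background taken off was brighter than the spots. Sheep gestation day 14 was flagged as detected, yet 0 of its 19 spots were well above background, as on every other sheep array. At mouse gestation day 17, 10 of 19 spots were well above it, and in virgin mice 10 of 20.

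Within mouse, the bright arrays stood well above the others for miR-1, miR-133a and miR-133b. For miR-206 the step was smaller, and from gestation day 17 its scaled bounds were at most 1.53-fold. Where a miRNA was not well above background, the comparison is a lower bound, taken on the longer probe against the lowest signal that any probe well above background had on that array, or the dim probe's own signal where higher. At gestation day 10, miR-1 was at least 31.7-fold lower, miR-133a at least 26.1-fold, miR-133b at least 36.1-fold and miR-206 at least 6.10-fold lower than in virgin mice. At lactation day 2 the bounds against virgin mice were at least 23.5-fold for miR-1, 19.3-fold for miR-133a, 26.7-fold for miR-133b and 4.51-fold for miR-206, all lower in lactation. At lactation day 10 they were at least 16.4-fold, 13.5-fold, 18.7-fold and 3.16-fold in the same order of miRNAs. Without scaling, the bounds against virgin mice in that order of miRNAs were 27.0-fold, 22.3-fold, 30.7-fold and 5.20-fold at gestation day 10, 35.6-fold, 29.3-fold, 40.5-fold and 6.85-fold at lactation day 2, and 39.98-fold, 32.9-fold, 45.4-fold and 7.69-fold at lactation day 10. These bounds compare single arrays and have no replicate check.

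Gestation day 17 stood above gestation day 10 by at least 16.7-fold for miR-1, 7.02-fold for miR-133a, 13.2-fold for miR-133b and 1.53-fold for miR-206. Lactation day 2 was below gestation day 17 by at least 12.3-fold for miR-1, 5.19-fold for miR-133a, 9.76-fold for miR-133b and 1.13-fold for miR-206. Lactation day 10 was below gestation day 17 by at least 8.64-fold for miR-1, 3.63-fold for miR-133a and 6.83-fold for miR-133b, and no fold can be given for miR-206 on this scale. Without scaling, lactation day 10 was below gestation day 17 by at least 32.9-fold for miR-1, 13.9-fold for miR-133a, 26.1-fold for miR-133b and 3.01-fold for miR-206. The unscaled bounds for lactation day 2 against gestation day 17 were 29.3-fold, 12.3-fold, 23.2-fold and 2.68-fold, and those for gestation day 17 over gestation day 10 were 22.3-fold, 9.36-fold, 17.6-fold and 2.04-fold, in the same order. Along the mouse stages the signal was thus high, dim, high, dim and dim, and gestation did not form 1 level.

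Between the bright arrays the 4 miRNAs did not differ by 1 common factor. At gestation day 17 miR-1 was 0.525 times its virgin signal, miR-133b 0.370 times, miR-133a 0.281 times and miR-206 0.270 times. Over the 142 miRNAs detected on both arrays the median log2 difference was -0.01, against -0.93 ± 0.018 for miR-1, -1.43 ± 0.021 for miR-133b, -1.83 ± 0.022 for miR-133a and -1.89 ± 0.053 for miR-206 (standard error between spots). Without scaling the values were 0.822, 0.580, 0.440 and 0.422 times in that order, against a median log2 shift of 0.64 for all miRNAs. With quantile normalization they were 0.431, 0.307, 0.201 and 0.255 times. The authors' deposited table gave 0.120, 0.0845, 0.0641 and 0.0615 times, against a median log2 shift of -2.14. With the normexp background correction miR-1 was 0.562 times, miR-133b 0.421 times, miR-133a 0.353 times and miR-206 0.463 times its virgin signal, against 0.812 times for the median of 143 miRNAs. miR-1 was thus the least lowered member in each of these settings, while the place of miR-206 changed with normexp and with quantile normalization. The normexp setting also added an offset of 50 units, beside miR-206 signals of 29.2 units at gestation day 17 and 69.2 in virgin mice. The part of that offset in the change was not tested.

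In sheep the signals were small, and the 3 early arrays differed among themselves. At gestation day 14 miR-1 was 1.73-fold, miR-133a 2.93-fold and miR-133b 3.16-fold higher than in cycle. At gestation day 64 miR-133a was 4.41-fold and miR-133b 4.53-fold higher than in cycle, whereas miR-1 was 1.06-fold higher when scaled and 0.826 times its cycle signal without scaling. Gestation day 64 against day 14 gave 0.610 times for miR-1, and 1.51-fold and 1.43-fold higher values for miR-133a and miR-133b. miR-1 and the miR-133 pair therefore moved in different directions between these 2 days, each by more than the error between spots, with 1 array a day and no replicate check.

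The ratio between 2 members on an array does not depend on any scaling by 1 factor, though it does depend on the background correction and on quantile normalization. The normexp setting adds 50 units to every signal, which by itself draws ratios of dim signals toward 1 and narrows their range. Ratios are given where both miRNAs were detected and had spots well above background. Since probes differ in brightness, a ratio was only set against the same ratio on other arrays. The ratio of miR-133a to miR-133b, where both were so measured, was 0.601 ± 0.046 in sheep cycle, 0.557 ± 0.015 and 0.585 ± 0.012 at sheep gestation days 14 and 64, 0.721 ± 0.0087 in virgin mice and 0.547 ± 0.0095 at mouse gestation day 17. Its highest value was 1.32 times its lowest, while the miR-133a signal ranged from 0.648 to 51.0%. That range was 1.54-fold with normexp and 1.73-fold with quantile normalization. The part that cross-reading between the 2 near-identical miRNAs has in this ratio was not tested.

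Ratios with miR-206 could be read on the bright mouse arrays only. The ratio of miR-206 to miR-133a was 0.218 ± 0.0069 at gestation day 17 and 0.227 ± 0.0054 in virgin mice. On the log2 scale these were -2.20 and -2.14, against -1.03 and -1.43 with normexp and -2.01 and -2.35 with quantile normalization, so which array was higher depended on the processing. The ratio of miR-206 to miR-133b was 0.119 ± 0.0036 at gestation day 17 and 0.164 ± 0.0041 in virgin mice, and that of miR-206 to miR-1 was 0.0988 ± 0.0030 and 0.192 ± 0.0045.

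Ratios with miR-1 spread more widely. The ratio of miR-1 to miR-133a was 2.19 ± 0.16 in sheep cycle, 1.30 ± 0.036 and 0.526 ± 0.022 at sheep gestation days 14 and 64, 1.18 ± 0.010 in virgin mice and 2.21 ± 0.039 at mouse gestation day 17, a range of 4.20-fold (2.23-fold with normexp, 5.51-fold with quantile normalization). The ratio of miR-1 to miR-133b was 1.32 ± 0.072 in sheep cycle, 0.723 ± 0.018 and 0.307 ± 0.012 at sheep gestation days 14 and 64. It was 0.852 ± 0.0098 in virgin mice and 1.21 ± 0.018 at mouse gestation day 17, a range of 4.29-fold over the 5 arrays (1.83-fold with normexp, 4.68-fold with quantile normalization). On the bright mouse arrays, where all 3 miRNAs other than miR-206 had all their spots well above background, the ratio of miR-1 to miR-133a still differed beyond the error between spots. The 4 miRNAs thus did not keep 1 set of proportions over the arrays, and the widest ranges were those of miR-1 against miR-133a and miR-133b.

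**Figure D2:**
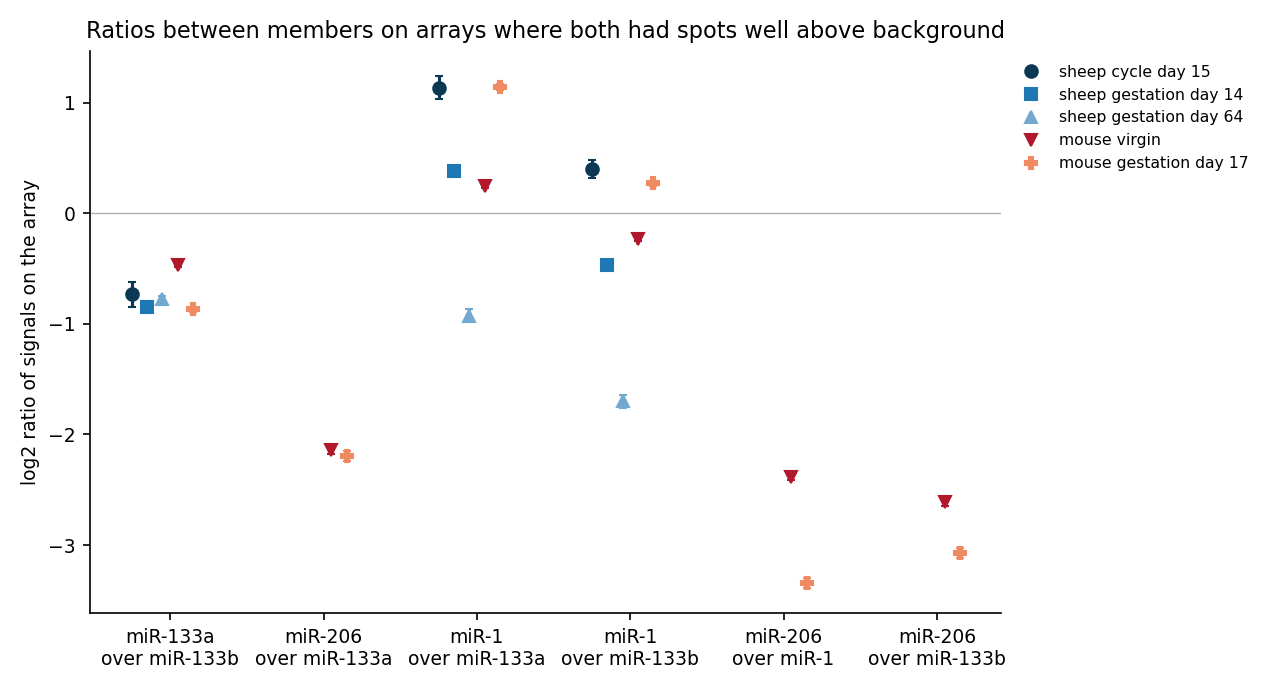
Log2 ratio of 2 miRNAs on the same array, with the standard error between spots, for each pair and each array on which both were flagged as detected and had spots well above background. The ratio of miR-133a to miR-133b varies 1.32-fold over 5 arrays and that of miR-1 to miR-133a 4.20-fold over the same 5.

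The probes of a pair did not give equal signals. At sheep gestation day 64 the longer probe was 4.11-fold brighter than the shorter for miR-133a and 5.69-fold for miR-133b. At mouse gestation day 17 it was 14.2-fold brighter for miR-1, 6.54-fold for miR-133a and 8.28-fold for miR-133b, and in virgin mice 13.7-fold, 9.83-fold and 9.26-fold in the same order. Over all miRNAs with 2 such probes well above background, 67 to 127 per array, the median was between 2.70-fold and 4.15-fold and the longer probe was the brighter in 94.8 to 97.6%. The direction in these miRNAs was therefore the common one. For miR-206 in virgin mice the longer probe read 129 units with 10 of its spots well above background, while the shorter read 9.22 units with 0, so only 1 probe was above background there. On every sheep array the shorter probe of miR-1 had 0 spots well above background. In cycle the shorter probes of miR-133a and miR-133b also had 0, and at gestation day 14 they had 0 and 1. The sheep folds and ratios on these arrays thus rest mainly on the longer probes.

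**Figure D3:**
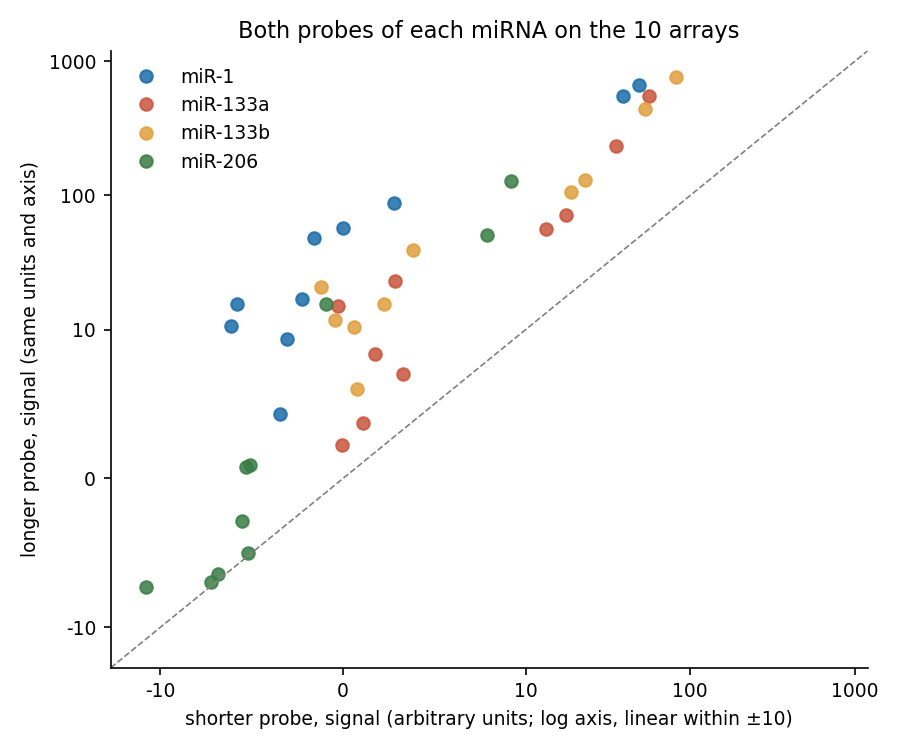
Signal of the longer against the shorter probe of each miRNA on each of the 10 arrays, in arbitrary units (log axes that turn linear within 10 units of 0); the dashed line marks equal signals. The longer probe is the brighter one on the bright mouse arrays, by 6.54-fold to 14.2-fold for miR-1, miR-133a and miR-133b.

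Of the other miRNAs of striated muscle, miR-486 alone was bright on any array. miR-208a and miR-208b, which lie within genes for the myosin heavy chains of heart and slow muscle, and miR-499, which lies within another myosin gene, were detected on 0 of 10 arrays. The star strand of miR-133a, the other arm of its hairpin, was detected on 2 arrays, mouse gestation day 17 with 0.733% and virgin mice with 1.90%. These were the arrays on which miR-133a itself was bright. miR-486, made in muscle and in red cells, was detected on 7 arrays. Its signal was at most 1.26% on the sheep arrays, and 13.9% in virgin mice, 2.47 and 2.41% on gestation days 10 and 17, and 3.11 and 5.33% on lactation days 2 and 10. At gestation day 17, where the 4 muscle miRNAs were bright, miR-486 was therefore no higher than at gestation day 10 on this scale. Without scaling it read 22.5 units at gestation day 17 and 17.3 at gestation day 10.

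Markers of other cells that the tissue holds were read beside these values, as summed signals in percent of the 75th percentile. The 4 muscle miRNAs summed to 1.09 to 9.26% in sheep, and to 194% in virgin mice, 3.13 and 75.3% on gestation days 10 and 17, and 3.51 and 2.01% on lactation days 2 and 10. The 3 red cell miRNAs (miR-451, miR-144 and miR-486) summed to 15.1 to 62.0% in sheep, and to 597% in virgin mice, 185 and 172% on gestation days 10 and 17, and 260 and 396% on lactation days 2 and 10. The virgin array was thus the highest for red cell and striated muscle miRNAs, while gestation day 17 was the lowest mouse array for red cells on this scale. Without scaling, each of the 3 red cell miRNAs was at gestation day 17 the next highest in mouse after virgin animals. miR-451 then read 1545 units at gestation day 17 and 1268 at gestation day 10, so the low place depends on the scaling. The part of blood in the muscle signal was not tested.

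The 6 epithelial miRNAs, the miR-200 family and miR-205, were detected on all 10 arrays. In sheep they summed to 528% in cycle, 474, 386 and 1156% at gestation days 14, 64 and 125, with 1018% in lactation. In mouse the sum was 180% in virgin mice, 302 and 654% on gestation days 10 and 17, and 1078 and 1420% on lactation days 2 and 10. On this scale the sheep arrays with the highest epithelial sums, gestation day 125 and lactation, were those with the lowest sums of the 4 muscle miRNAs, 1.09 and 2.70%, against 3.15 to 9.26% on the other 3 sheep arrays. Within the epithelial list miR-205 went the other way, with 19.1% at gestation day 125 and 23.0% in lactation, against 46.2 to 94.0% on the other 3. In mouse miR-205 was highest at gestation day 17 with 50.1%, and had 11.5% in virgin mice and 13.6% at lactation day 10. Without scaling, each of the 6 epithelial miRNAs read higher in cycle than in lactation, miR-200b at 3373 against 2193 units. The place of lactation therefore depends on the scaling. In mouse the muscle and epithelial sums did not run in opposite orders, since gestation day 17 exceeded gestation day 10 in both. The part of a changing epithelial share in the muscle signal was not tested.

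The 2 smooth muscle miRNAs, miR-143 and miR-145, ranged in sheep between 28.9% at gestation day 125 and 78.3% at gestation day 64. They summed to 59.1% at mouse gestation day 17, the highest of the mouse arrays, and to 19.3% in virgin mice, the lowest of the 10 arrays. Myoepithelial cells and vessel walls also carry them. The 3 fibroblast miRNAs (miR-199a-5p, miR-199b and miR-214) summed to 43.9 to 263% in sheep, and in mouse to 267% at gestation day 10, where the muscle miRNAs were dim, and 247% in virgin animals. Adipocyte miRNAs lay between 68.6 and 151% in sheep and between 167 and 341% in mouse. Endothelial ones lay between 113 and 258% in sheep and between 141 and 222% in mouse, and leukocyte ones between 23.8 and 109% in sheep and between 30.4 and 60.9% in mouse. Of the lists other than striated muscle and red cells, none had its highest mouse sum in virgin animals.

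**Figure D4:**
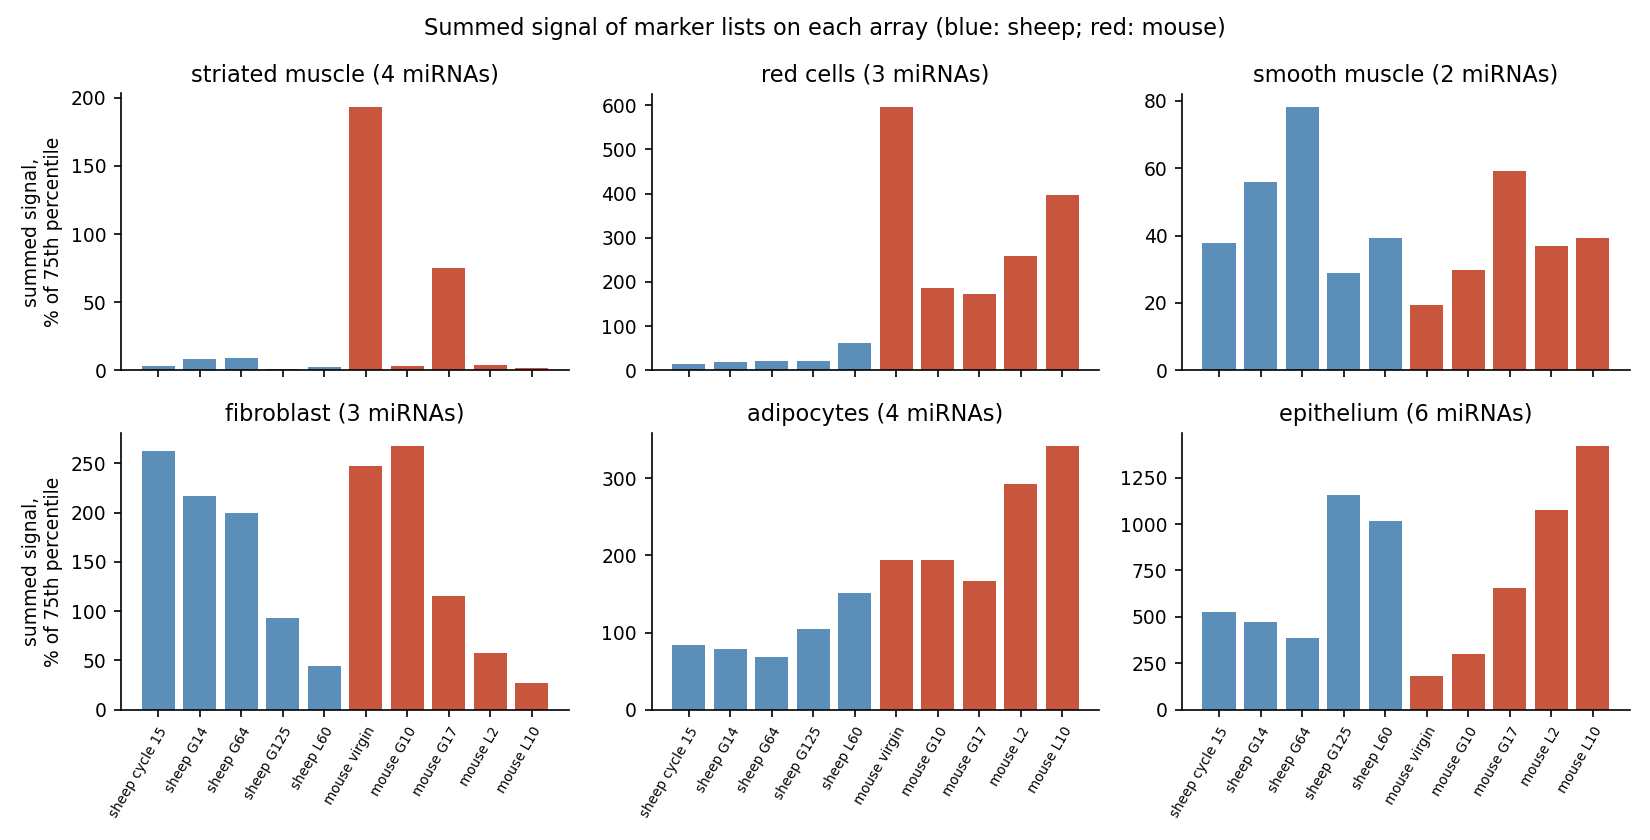
Summed signal of 6 lists of miRNAs on each array (bars from 0, in percent of the array's 75th percentile of shared miRNAs; blue sheep, red mouse; the number on each panel is that of the list's miRNAs on the array). The muscle sum is at most 9.26% on the sheep arrays and reaches 75.3% at mouse gestation day 17 and 194% in virgin mice, and no other panel is high on these 2 arrays alone.

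Over the 10 arrays the signals of the 4 miRNAs correlated with each other at Pearson's r between 0.96 and 1.00 across arrays, as a description. The coefficients rest on virgin and gestation day 17 mice: without these 2 arrays, the farthest from the median, r was 0.96 between miR-133a and miR-133b and between 0.38 and 0.71 for the other 5 pairs (n = 8). The 5 miRNAs outside the group whose log2 signal ran most like the mean of the 4 were miR-300 (r = 0.80), miR-486 (0.75), miR-503 (0.73), miR-144 (0.71) and miR-130a (0.66), over the 10 arrays, which share 2 species and 1 scaling. Floored values were used for this likeness, and outside virgin and gestation day 17 mice only 2 of 32 values of the 4 miRNAs lay above the floor (miR-133b at sheep gestation days 14 and 64), so the coefficients rest on those 2 mouse arrays and likeness on the other 8 could not be read. miR-300 had 6.70% in virgin mice, 3.58% at gestation day 10 and 2.16% at gestation day 17, so unlike the muscle miRNAs it was higher at gestation day 10 than at day 17. miR-130a likewise had 51.8% at gestation day 17 and 72.1% at day 10.

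The design allows 3 comparisons over the arrays, sheep with mouse, lactation with gestation, and gestation with not pregnant (ewes in cycle and virgin mice). They were fitted with limma on log2 signals of the 213 miRNAs detected on at least 3 arrays, and a miRNA was called at an adjusted p under 0.05. For these fits any value under 2.90% of the 75th percentile (log2 -5.11) was raised to that floor, which held 30 of the 40 values, 11 of them flagged as detected. Sheep and mouse arrays of different days served as each other's replicates, so the p-values measure the spread between days and species.

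In sheep against mouse, 0 of the 4 miRNAs were called, where limma called 21.6% of all miRNAs tested (8.45% higher and 13.1% lower in sheep), and 0 of the 4 reached an unadjusted p under 0.05, against 76 of 213. On each of the 5 sheep arrays miR-1, miR-133a and miR-206 were at the floor. On the log2 scale miR-133b averaged -4.91 ± 0.33 in sheep and -3.55 ± 2.19 in mouse (SD, n = 5 each). The adjusted difference was -1.61 ± 0.87 for miR-133b (adjusted p = 0.251), -1.80 ± 0.86 for miR-1 (0.197), -1.46 ± 0.71 for miR-133a (0.198) and -0.45 ± 0.32 for miR-206 (0.378), with standard errors from limma. All 4 lay below 0, as did 90 of 213 miRNAs tested, and their median was -1.54 against 0 over all. With miR-1, miR-133a and miR-206 at the floor in sheep, their sheep means could not lie above those of mouse. The shared direction is therefore no result. The spread within mouse, up to 2.19, exceeded each difference, and groups overlapped for every member. Within slide 1 alone the differences were -1.83 for miR-1, -1.22 for miR-133a, -1.51 for miR-133b and -0.06 for miR-206, none of them called. Single arrays moved these differences by over 1.5 times: miR-1 was at -1.11 and miR-133b at -0.81 without the virgin array and equally without the array of ewes in cycle, and at -1.14 and -1.07 without mouse gestation day 17. Leaving out the virgin or the cycle array must give the same value, since the remaining not pregnant array is then taken up by its own stage term. Without mouse gestation day 10 miR-1 was at -2.49 and miR-133b at -2.32, and 3 of the 4 members had an unadjusted p under 0.05 by limma (lowest adjusted p = 0.0884). Without sheep lactation they were at -2.50 and -2.24, and 2 of the 4 had such a p by limma (lowest adjusted p = 0.144).

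In lactation against gestation, 0 of the 4 were called, where limma called 2.82% of all miRNAs, and 0 of the 4 reached an unadjusted p under 0.05. All 3 lactation arrays lay at the floor for each member. All 4 differences lay below 0, as did 108 of 213 miRNAs, with a median of -1.01 against -0.00 over all. With every lactation value at the floor, the lactation means could not lie above those of gestation, so this shared direction is no result. In gestation miR-133b averaged -4.28 ± 1.35 and miR-1 -4.42 ± 1.54 (SD, n = 5). The differences were -1.26 ± 1.01 for miR-133b (adjusted p = 0.666), -1.17 ± 1.00 for miR-1 (0.705), -0.85 ± 0.82 for miR-133a (0.736) and -0.14 ± 0.36 for miR-206 (0.992), by limma. On the longer probe, 0 of 3 lactation arrays had miR-133a, miR-133b or miR-206 well above background. Of the 5 gestation arrays, 3, 3 and 1 did, in the same order. No bound on the fold between the group means can be given, since the gestation means also hold arrays not well above background. Within slide 1 alone the differences were -1.62 for miR-1, -1.09 for miR-133a, -1.67 for miR-133b and -0.05 for miR-206. Without mouse gestation day 17 miR-1 was at -0.48 and miR-133b at -0.69, without mouse gestation day 10 at -1.90 and -2.01, and without sheep lactation at -2.19 and -2.18, none of them called.

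In gestation against not pregnant, 0 of the 4 were called, where limma called 0.469% of all miRNAs, 1 of 213, and 0 of the 4 reached an unadjusted p under 0.05. miR-1 averaged -4.42 ± 1.54 in gestation (SD, n = 5) and -2.92 ± 3.10 in not pregnant animals (SD, n = 2), and miR-206 averaged -5.09 ± 0.048 and -4.11 ± 1.41. The differences were -1.32 ± 1.11 for miR-1, -1.46 ± 0.92 for miR-133a, -1.31 ± 1.13 for miR-133b and -0.93 ± 0.41 for miR-206 (adjusted p = 1 for each, by limma). The lower values in gestation rested on 1 array. Without the virgin array the differences were 0.25, 0.16, 0.51 and 0.01, and within slide 1, which does not hold that array, 0.41, 0.27, 0.66 and 0.01, in the same order. With slide as a term they were -1.47, -1.46, -1.41 and -0.78. All 4 differences over the 10 arrays lay below 0, as did 108 of 213 miRNAs, with a median of -1.31 against 0 over all. miR-206 was called by limma in mouse alone (-1.94, adjusted p = 0.0151) and without the array of ewes in cycle (-1.96, adjusted p = 2.35e-06), where all arrays but virgin and mouse gestation day 17 lay at the floor. This comparison and the one of lactation share the gestation arrays.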

How the data were processed

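The deposited scanner files hold intensity in arbitrary units; the processed signal is background-subtracted and detrended by Agilent Feature Extraction 10.5.1.1 per the file headers (9.5 per the submitters' processing notes), with no scaling between arrays. Detection and background flags are the same software's. The value table the authors deposited, also an intensity, differed by at most 0.1% from a fixed multiple of the array's total signals in 98.6 to 100% of those miRNAs whose total signal exceeded 50; direction and scale are therefore known, the basis of the constants and any centring are not. Its column medians were -0.603, 0.303, 0.26, -3.94 and -2.80 (sheep, stage order) and -11.4, -5.23, 0.76, -2.35 and -11.6 (mouse).

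Outlier spots were left out, spots averaged per probe and probes per miRNA. Arrays were divided by the 75th percentile of the 94 shared miRNAs, floored, and log2 values fitted with limma 3.58.1 (lmFit, eBayes; R 4.3.3; additive species and stage class, 6 residual degrees of freedom; Benjamini-Hochberg over 213 miRNAs), a step tested on simulated data. The floor was the highest, over arrays, of the 5th percentiles of detected miRNAs. Ratios and signals by array used unfloored values; ratios against a miRNA with 0 spots well above background were left out after the values had been seen. The number of arrays limits precision, and no member spot was saturated. Alternatives covered background correction (normexp, offset 50), scaling, floor, detection filter, slide, species and each array left out. Named miRNAs were the 4 members and their star strands, the other striated muscle miRNAs, the 5 most correlated and the cell type lists; members and lists were chosen with earlier results of these data known.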

Additional observations from a re-analysis of the deposited data

Results flagged for a closer look

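The change of miR-206 between gestation and not pregnant differed between sheep and mouse when each of the 6 combinations of species and stage was given its own mean, a fit added after the data had been seen. It was 0 in sheep and -1.94 in mouse on the log2 scale, a difference of 1.94 ± 0.063 (standard error) with an adjusted p of 0.000164 by limma over 213 miRNAs, of which 9 were called. All 5 sheep arrays and 3 of the 5 mouse arrays lay at the floor, and the virgin array alone stood for its group, so the small error comes from floored values. The same difference was 2.65 ± 1.95 for miR-1 (adjusted p = 1), 2.98 ± 1.30 for miR-133a (0.608) and 3.35 ± 1.85 for miR-133b (0.921), by limma, none of them called.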

How the results depend on the processing

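No paired analysis was possible because the replicate numbers only name the arrays and no label ties a ewe or mouse to 2 of them. None of the 4 miRNAs was called in sheep against mouse or in lactation against gestation under any alternative run. In gestation against not pregnant, 1 of them, miR-206, was called by limma in mouse alone (-1.94, adjusted p = 0.0151) and without sheep cycle replicate 1 (-1.96, 2.35e-06), where miR-1, miR-133a and miR-133b were at -3.02, -3.23 and -3.29; over its other alternatives miR-206 was not called. That comparison turned positive without mouse virgin replicate 1 (0.25 for miR-1, 0.16 for miR-133a, 0.51 for miR-133b, 0.0077 for miR-206), in slide 1 alone (0.41, 0.27, 0.66 and 0.013) and, for miR-133b, in sheep alone (0.33). In lactation against gestation miR-206 turned to 0.057 with slide as a term. The cause was not tested. Of the alternative values of the ratios between members, 72 stayed within the error between spots and 33 did not, these under normexp and quantile normalization. No scaling, the percentile over all miRNAs and the authors' table act by 1 factor per array and cannot change such a ratio. Their share of the 72 was therefore fixed in advance. Under normexp and quantile normalization, more ratios moved than stayed.

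Calls over all 213 miRNAs in sheep against mouse, 46, became 18 with normexp, 87 without scaling (69 higher, 18 lower, with a median shift of 0.69), 14 with the authors' deposited table and 95 with a floor 4 times lower, and 35 to 53 with 1 array left out. Quantile normalization gave 24 higher and 23 lower and the percentile over all miRNAs 23 and 23. In lactation against gestation, 6 calls became 22 without scaling (1 higher, 21 lower, median shift -0.67), 24 with the lower floor and 1 with quantile normalization. They became 0 by limma with normexp, the percentile over all miRNAs, the authors' table, mouse alone, slide 1 alone, no detection filter and a term for slide (22, 29, 13, 19, 26, 32 and 28 at an unadjusted p under 0.05), and with 1 array left out 5 (sheep gestation replicate 1), 1 (mouse lactation replicate 2) or 0 (each of the other 8, with 24 to 40 at that p). In gestation against not pregnant, 1 call became 0 by limma with normexp, no scaling, quantile normalization, the authors' table and the lower floor (2, 2, 5, 10 and 3 at an unadjusted p under 0.05). It became 2 without the detection filter, 6 in slide 1 alone, 6 in sheep alone and 5 in mouse alone, and 7 without sheep cycle, 5 without mouse virgin and 1 without each other array. In the main fits every sheep value of miR-1, miR-133a and miR-206 was raised to the floor. Differences among sheep arrays could therefore not be seen for these miRNAs. For miR-133b, 3 of the 5 sheep values were so raised.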
